A study of Gallus gallus with 41 samples.

Results

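The cells described here are the 10 single cells taken from chick retinas at embryonic day 6 (E6), called cells 1 to 10 after their replicate numbers. The genes described are those that were bright in 3 to 7 of the 10 cells and low in every other cell. Bright means a log2 signal of 12 or more, and low means below the 80th percentile of that cell's own array. Of 13009 genes with a symbol, 88 met the rule. The series holds 41 cells from 8 ages, each on its own Affymetrix chicken array, and asks how the transcripts of single retinal cells differ between ages. Papain was used to take the retinas apart, and each cell was picked with a pipette. The labels give no treatment. Their polyadenylated RNA was copied from an oligo dT primer and amplified by 35 PCR cycles. The labels name no strain, sex or embryo, so the 10 cells count as 1 sample of E6 and no test between cells was made. The neighbouring ages used for comparison are E3 (6 cells), E5 (5 cells), E9 (6 cells) and E14 (8 cells) from retinas handled in the same way.

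At this age the chick retina holds dividing progenitors and newly born neurons side by side. Ganglion cells are the first neurons to form, and their axons leave through the optic nerve. Members of the bHLH family such as ATOH7 act in cells leaving division, while LIM-homeodomain and EBF factors such as ISL1 and EBF3 are used by young ganglion cells and some other neurons. Transcripts of 1 cell can also be missed when so little RNA is copied, so a low signal may also be a transcript that was not copied. The roles given below are mostly known from mouse and human.

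The 10 cells carried the marks of neurons. EBF3 was bright in all 10, at 15.85 ± 0.75 (SD, n = 10 cells). So were STMN2, which regulates microtubules in neurites (16.62 ± 1.0), and NEFL, the light neurofilament subunit (15.45 ± 0.53). PAX6, an eye field factor of progenitors that ganglion and amacrine cells keep, was also bright in all 10 (15.68 ± 0.58). It does not by itself mark a neuron. STMN2, NEFL and PAX6 were picked after their values were seen. Of 17 genes on a ganglion cell list, 6 to 10 were bright in each cell. Over all genes, 6.88% to 11.7% were bright in a cell, and counts near that share do not set a list apart. Of 18 progenitor genes, 2 to 4 were bright in each cell, with PAX6 and VIM bright in all 10, and of 30 cell cycle genes 0 to 3 were. The progenitor gene FABP7 was bright in cells 1 and 9. Of the cell cycle list, CCNA2 was bright in cells 1 and 3, PCNA in 2, 3 and 6, RRM1 in 1, 5 and 10, and KIF20A in 2, 4, 8 and 10. These genes were also picked after their values were seen. The 15 amacrine genes gave 1 or 2 bright genes a cell and the 8 bipolar genes 0 to 2. None of the 5 horizontal, 10 photoreceptor, 9 pigment epithelium, 7 erythroid, 8 microglia or 14 vascular and mesenchymal genes measured was bright in any of them. The Muller glia list of 7 genes had 1 bright gene in every cell, VIM, and the neurogenic list of 15 had 0 to 3. The lens list had CRYBA4 and the oligodendrocyte list had MBP bright in some cells. No cell was given a subtype. None of the 88 genes is on any of these marker lists. Whether RNA of other cells had a part in the differences between cells was not tested.

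Cell 7, cell 4 and cell 1 stand apart or go against a label. The array of cell 7 had a high background: its median was 7.38 against 4.28 to 5.50 on the other 9 arrays, its 80th percentile 9.26 against 6.20 to 7.29, and 895 genes were bright on it against 1187 to 1520. A gene could therefore count as low in cell 7 at a signal that would lie between the thresholds in any other cell. This was so for several of the 88 genes, such as SOD1, RHOB, PLXNC1 and NUP58, and was not counted over all of them. The profile of cell 4 correlated with that of E9 replicate 3 at r = 0.85 over all 38535 probe sets. That was the highest of all 820 pairs of cells, the next pair reaching 0.60, and cell 4 reached 0.33 to 0.49 with the other E6 cells and 0.51 to 0.53 with the other 5 E9 cells. Among the 88 genes, E9 replicate 3 had the state of cell 4 (bright, low or between) in 82, while the other 5 E9 cells had it in 37 to 45 and the other 9 E6 cells in 37 to 49. Whether these 2 arrays share material was not tested. Cell 1 carries E5 in its source name and E6 in its title. Its r with the 5 E5 cells was 0.35 to 0.42, its median r with the other E6 cells was 0.46, and it reached 0.49 to 0.53 with the 6 E9 cells. Cell 3, whose labels do not differ, had 0.34 to 0.41 with the same E5 cells. A high r with E9 cells was not particular to cells 1 and 4. Cells 2, 3, 5, 6, 8, 9 and 10 also had their highest r with an E9 cell, at 0.41 to 0.52. The rule found 107 genes without cell 1, 109 without cell 4 and 99 without cell 7, with 3 to 6 bright cells of 9, and 79, 70 and 73 of the 88 were among them. Without all 3 cells, and with 2 to 5 bright cells of 7, it found 312 genes, 75 of the 88 among them.

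**Figure D1:**
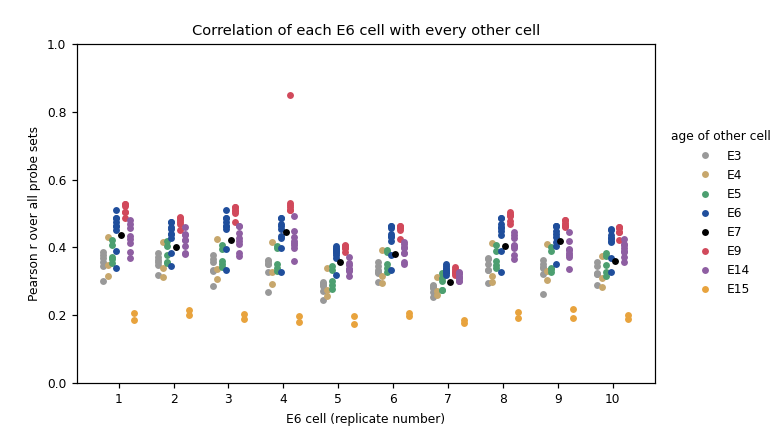
Pearson r over all probe sets between each E6 cell (x axis, replicate number) and every other cell of the series, coloured by the age of the other cell. Cell 4 with E9 replicate 3, at 0.85, lies far above every other point, and cell 7 lies lowest among the E6 cells, with r of 0.32 to 0.35 to the others.

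The 88 genes made up 0.676% of all genes measured. Brightness in 3 to 7 cells was common, with 1530 genes or 11.8% of all, but in most of them at least 1 further cell lay between the thresholds, and the 88 were 5.75% of these 1530. A single cell between the thresholds kept out 271 genes. The number of bright cells was 3 for 35 of the 88 genes, 4 for 25, 5 for 12, 6 for 6 and 7 for 10. The distance from the lowest bright to the highest low cell had a median of 5.87 log2 units and ran from 3.12 to 10.26. These values chose the genes and describe them, with no test. Cells 3 and 4 each had 49 of the 88 bright, cells 1 and 2 each 42, cell 6 41, cell 8 36, cell 9 32, cell 10 31 and cell 5 30. Cell 7, on the array of high background, had 19. The share of all genes that were bright was also lowest in cell 7, at 6.88%, and then in cell 5, at 9.12%, while cell 4 had the highest at 11.7%.

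**Figure D2:**
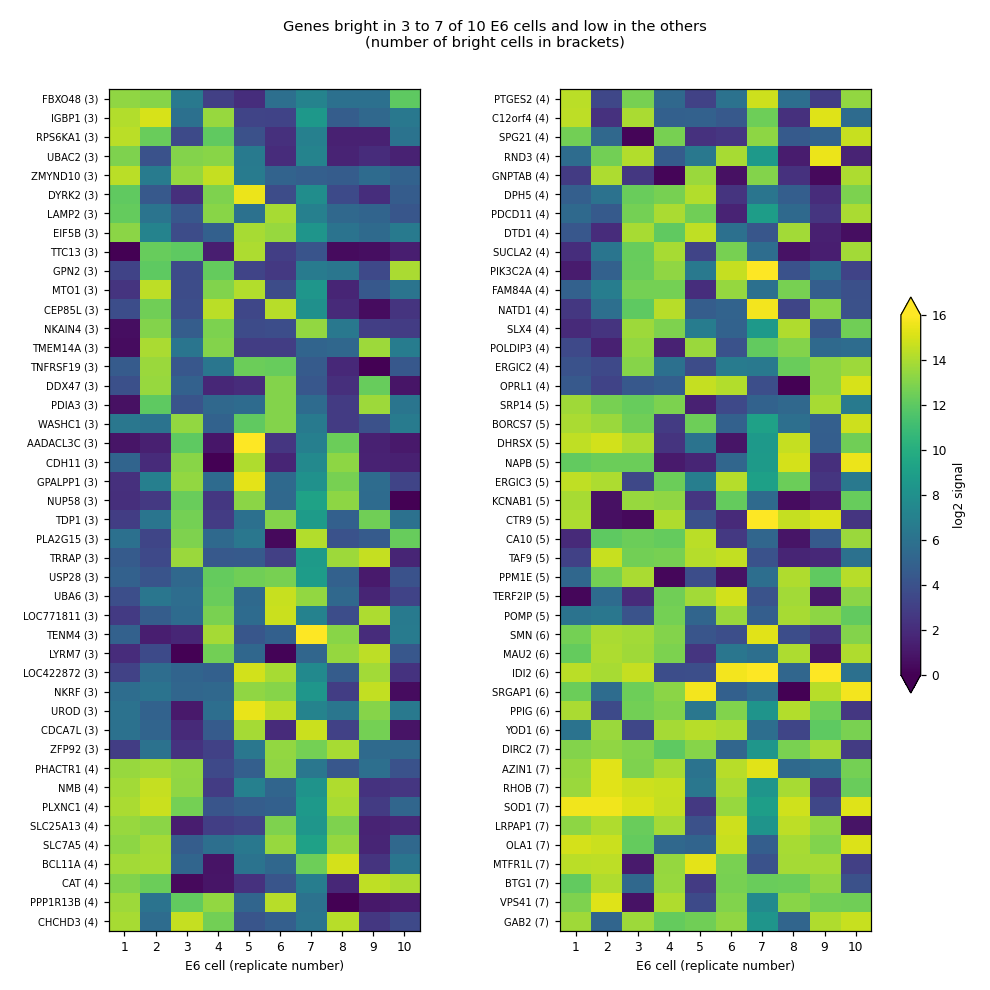
Log2 signal of the 88 genes (rows, number of bright cells in brackets) in the 10 E6 cells (columns, replicate number), ordered by the number of bright cells and then by which cells were bright. Bright and low cells alternate from row to row, few neighbouring rows repeat the same set of cells, and many of the low values of cell 7 are lighter in colour than those of the other cells.

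The 88 genes fell into 75 different sets of bright cells, of which 65 belonged to 1 gene and 10 to more than 1, so that 23 genes shared their set with another. Of 3828 pairs of genes, 17 had the same state in all 10 cells, 41 in 9, and 4 were opposite in all 10. Among the opposite pairs, those of CDCA7L with SOD1 and RHOB and of GNPTAB with PPIG rest on the raised limit of cell 7. The median pair had the same state in 5 cells, and 912 different sets of 3 to 7 cells can be made from 10. Probe sets with names ending in _s_at or _x_at can match several transcripts. When these were left out, 73 genes met the rule, 66 of the 88 among them. Of the 73, 7 shared a set, in 3 sets: CDH11, AADACL3C and GPALPP1, NMB and PLXNC1, and ZMYND10 and UBAC2. Probe sets ending in _a_at, which also can match several transcripts, were kept. They hold 9 of the 88 genes, NMB and ZMYND10 among them. Sharing was wider without most cells, at 36, 35, 40, 40 and 39 genes without cells 1, 2, 3, 4 and 10. It was 34, 32 and 32 without cells 7, 8 and 9, 25 without cell 6 and still 23 without cell 5. Without cells 4 and 7, and with 3 to 5 bright cells of 8, it was 65 of 117 genes (55.6%). Fewer cells also allow fewer different sets, which by itself makes sharing easier.

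The set held by most genes was cells 3, 5 and 8. CDH11, a classical type II cadherin, had 13.16, 14.08 and 13.27 in these cells and at most 7.51 in the other 7. NUP58, a protein of the nuclear pore channel, had 12.37, 13.24 and 13.29, with 9.25 in cell 7 just under that array's limit. GPALPP1 had 13.41, 15.32 and 12.70 and was at 8.08 or less elsewhere. AADACL3C, a member of a lipase and deacetylase family, had 12.01, 16 and 12.43 and at most 6.90 elsewhere. CDH11, GPALPP1 and AADACL3C were highest in cell 5, and NUP58 was about as high in cell 8 as in cell 5. POLDIP3, which takes part in translation of spliced mRNA, differed from the set only by cell 7 (12.17). DTD1, which clears D-amino acids from tRNA, differed only by cell 4 (12.11). This set contains none of the cells 1, 4 and 7 as bright cells. In cell 7, CDH11 (7.51), GPALPP1 (8.08) and NUP58 (9.25) were low only by that array's own limit of 9.26. The limits of the other E6 arrays were 6.20 to 7.29, and AADACL3C lay within that range at 6.90. The other probe sets of CDH11 and GPALPP1 were bright in no E6 cell. Those of NUP58 were bright in 1 cell only, where the chosen probe set was low.

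Cells 5, 6 and 9 were bright together for UROD, an enzyme of heme synthesis, at 15.47, 14.43 and 13.12, and the other 7 cells had 7.14 or less. NKRF, a repressor that acts on NF-kappa-B targets, had 13.36, 13.09 and 14.54 in the same cells and at most 8.38 in the others. An unnamed locus followed them. In cell 7 NKRF had 8.38 and the locus 7.60, both low only by the raised limit of that array. OPRL1, the receptor of the peptide nociceptin, was bright in cells 5, 6, 9 and 10, at 14.61, 14.16, 13.23 and 15.04. It reached no more than 4.75 in the remaining 6. Cells 2, 6 and 9 shared DDX47, an RNA helicase of ribosome assembly, at 13.54, 13.04 and 12.30, and PDIA3, a disulfide isomerase of the endoplasmic reticulum, at 12.05, 13.05 and 13.66. Cells 6 and 9 had the same state in 53 of the 88 genes.

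Cells 1, 2, 3 and 8 were the bright cells of PLXNC1 and NMB. PLXNC1, a plexin receptor for semaphorins, had 13.99, 14.72, 12.66 and 13.91 there, and 2.76 to 8.60 in the others, with the highest of these in cell 7. NMB, which encodes the peptide neuromedin B, had 13.80, 14.57, 13.34 and 14.08 and at most 8.22 elsewhere. NAPB, a SNAP protein that helps to take apart SNARE complexes after vesicle fusion, was bright in these 4 cells and in cell 10, at 12.17, 12.41, 12.39, 14.97 and 15.53. DHRSX, a dehydrogenase, had the same 5 cells, at 14.49, 14.93, 14.02, 14.58 and 12.52. Cells 4, 5, 6, 7 and 9 were low for all 4 genes. In cell 7 these genes had 8.22 to 8.70, low only by that array's own limit of 9.26. The limits of the other E6 arrays were 6.20 to 7.29. Cells 1, 2, 6 and 8 shared a pair of carriers. SLC7A5, which brings large neutral amino acids into the cell, had 13.28, 13.83, 13.50 and 13.48, and SLC25A13, the aspartate-glutamate carrier of mitochondria, had 13.56, 13.24, 12.93 and 12.88. ERGIC3, a protein that cycles between endoplasmic reticulum and Golgi, had these cells and cell 4. SLC7A5, SLC25A13 and ERGIC3 had 9.17, 8.42 and 9.11 in cell 7, also low only by its limit. Cells 1 and 2 were the most alike pair of cells over the 88 genes, with the same state in 58, and cells 1 and 5 the least, with 30.

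**Figure D3:**
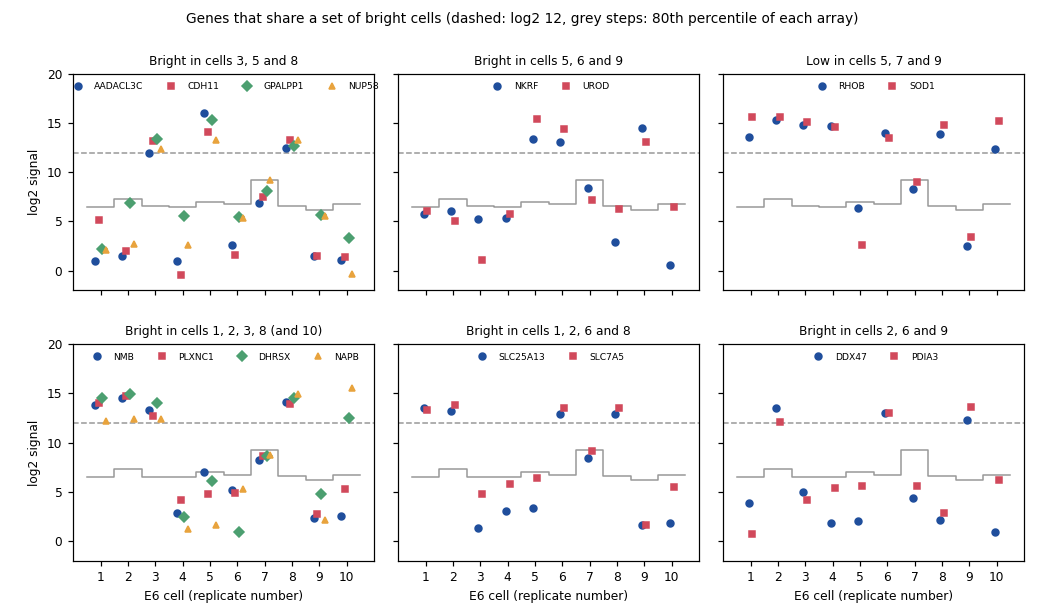
Log2 signal by E6 cell (x axis, replicate number) for genes that share a set of bright cells, with log2 12 as the dashed line and the 80th percentile of each array as grey steps; each symbol is 1 gene. In each panel the bright cells lie at 12 or more and the other cells under the grey steps, which are highest in cell 7.

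SOD1 and RHOB were low in cells 5, 7 and 9 and bright in the other 7. Both were low in cell 7 only by its own limit of 9.26, against 6.20 to 7.29 on the other E6 arrays. The other probe set of SOD1 was bright in no E6 cell (r = 0.35 with the chosen one), nor was that of RHOB (r = -0.003). SOD1, the cytosolic superoxide dismutase, had 13.51 to 15.63 with a median of 15.11 in the bright cells, against 2.63 in cell 5, 9.0 in cell 7 and 3.41 in cell 9. RHOB, a small GTPase of endosomes and the actin cytoskeleton, had 12.34 to 15.29 with a median of 13.97, against 6.36, 8.32 and 2.51. CDCA7L, a MYC-interacting nuclear protein, was the reverse in all 10 cells, with 13.83, 14.72 and 12.68 in cells 5, 7 and 9 and at most 5.94 elsewhere. MAU2, which helps to load cohesin onto chromatin, differed from SOD1 and RHOB only by being low in cell 6, at 6.31. GNPTAB, which adds the lysosomal address tag to enzymes, was bright in cells 2, 5, 7 and 10 (13.02 to 14.05), and PPIG, a cyclophilin of splicing speckles, in exactly the other 6 (12.50 to 14.16). In cell 7 PPIG had 8.30, low only by the limit of that array. MTFR1L, a mitochondrial protein, was low in cells 3, 7 and 10, where PLA2G15, a lysosomal phospholipase, was bright.

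By a sorting made by hand after the genes were known, 13 of the 88 belonged to membrane traffic and the lysosome, 13 to mitochondria, redox and metabolism, 12 to transcription, chromatin and DNA repair, 12 to RNA processing and translation, 10 to the cell surface, secretion and channels, 10 to signalling and the cytoskeleton, 7 to protein turnover and folding, and 11 were not assigned. Pairs alike in all 10 cells had the same role in 3 of 9 cases where both had one, and pairs alike in 9 or 10 cells in 6 of 43 (14%), against 399 of 2926 pairs (13.6%) overall. The 3 cases were NMB with PLXNC1, RPS6KA1 with IGBP1, and DPH5 with PDCD11, both of which act on the translation machinery. The counts that follow use lists built from gene symbols, which are read beside 0.676% of all genes meeting the rule and 11.8% bright in 3 to 7 cells. These lists miss some of the genes sorted by hand, such as LRPAP1, and place RPS6KA1 with the ribosomal proteins. Their shares rest on 0 to 4 genes each.

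Among transcription factors of neural development, 1 of 216 measured (0.463%) was among the 88. BCL11A, a zinc finger factor of neuronal differentiation, had 13.81, 13.90, 12.45 and 14.94 in cells 1, 2, 7 and 8 and 6.24 or less in the others. This rests on 1 probe set: the other 3 probe sets of BCL11A were bright in no E6 cell, and with the probe set chosen over 41 cells BCL11A had 0 bright cells. Of the 216, 40 had at least 1 bright cell, and 22 of these were bright in only 1 or 2 cells and 16 (7.41%) in 3 to 7. CTR9, a subunit of the PAF complex of elongating polymerase, was bright in cells 1, 4, 7, 8 and 9, with 14.04, 14.10, 17.11, 14.57 and 15.14, and its highest low cell was at 3.93. TERF2IP, a telomere protein, had 12.52 to 14.89 in cells 4, 5, 6, 8 and 10. BTG1, which restrains proliferation, had 12.15 to 14.07 in 7 cells and was low in cells 3, 5 and 10.

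At the cell surface, 1 of 68 axon guidance genes (1.47%, PLXNC1), 2 of 112 adhesion genes (1.79%), 1 of 143 ion channel genes (0.699%) and 1 of 105 neurotransmitter receptors (0.952%, OPRL1) met the rule, beside 0.676% of all genes. TENM4, a teneurin that binds partners across cell contacts, had 13.87, 17.45 and 13.14 in cells 4, 7 and 8. KCNAB1, an auxiliary subunit of voltage-gated potassium channels, had 13.91, 13.55, 13.33, 12.21 and 12.26 in cells 1, 3, 4, 6 and 10, and at most 5.53 elsewhere. CA10, a carbonic anhydrase-related protein that binds neurexins, had 12.05, 12.43, 12.19, 14.33 and 13.62 in cells 2, 3, 4, 5 and 10. SRGAP1, a GTPase-activating protein that acts in Slit-Robo signalling, was bright in cells 1, 3, 4, 5, 9 and 10, from 12.42 to 15.70, and low in cells 2, 6, 7 and 8. PHACTR1, which binds actin and protein phosphatase 1, had 13.34 to 13.81 in cells 1, 2, 3 and 6. Of 194 cytoskeletal and 109 synaptic vesicle genes, 0 and 1 (0.917%, NAPB) met the rule, and 26 (13.4%) and 16 (14.7%) were bright in 3 to 7 cells.

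In metabolism, IDI2, an isoprenoid isomerase, was bright in cells 1, 2, 3, 6, 7 and 9, from 13.90 to 17.53, and had 3.77 to 5.93 in cells 4, 5, 8 and 10. AZIN1, which releases ornithine decarboxylase from its inhibitor, was low in cells 5, 8 and 9. LYRM7, an assembly factor of respiratory complex III, had 12.59, 13.47 and 14.40 in cells 4, 8 and 9. Of 86 respiratory chain genes, 30 (34.9%) were bright in 3 to 7 cells and 0 were low in all the others. Membrane traffic had 67 of 248 (27.0%) and RNA binding and splicing 47 of 169 (27.8%) bright in 3 to 7 cells, and 1 of each was among the 88, VPS41 of the lysosomal HOPS complex and DDX47. Beside these shares of genes bright in 3 to 7 cells stands 11.8% over all genes. VPS41 and DDX47 each rest on 1 probe set, as their other probe sets were bright in no E6 cell. SMN, which assembles splicing particles, had 12.63 to 15.29 in cells 1, 2, 3, 4, 7 and 10 and at most 4.19 in the others. OLA1, an ATPase related to translation factors, was low only in cells 4, 5 and 7, at 4.79 to 5.39. YOD1, a deubiquitinase, had 12.03 to 14.29 in 6 cells. In the ubiquitin and proteasome list, 4 of 320 genes (1.25%) met the rule, beside 0.676% of all genes: UBA6, an activating enzyme of ubiquitin, USP28, a deubiquitinase, FBXO48 and UBAC2. On the chaperone list 1 of 105 did (0.952%, PPIG), on the list of kinases, phosphatases and their subunits 2 of 276 (0.725%, DYRK2 and PPP1R13B), and on the translation factor list 1 of 59 (1.69%, EIF5B, which joins ribosomal subunits). With the probe set chosen over 41 cells DYRK2 had 0 bright cells. RPS6KA1, a kinase caught by the name pattern of the ribosomal protein list, shared cells 1, 2 and 4 with IGBP1, which binds the catalytic part of phosphatase 2A.

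Further genes, named after their values were seen to fill out these groups, had sets of their own. CAT, the catalase of peroxisomes, was bright in cells 1, 2, 9 and 10, at 12.95, 12.38, 14.46 and 14.05, and SUCLA2, a subunit of succinyl-CoA synthetase, in cells 3, 4, 6 and 10, at 12.31, 13.94, 12.70 and 13.81. CHCHD3, a scaffold of the mitochondrial inner membrane, had 13.92, 14.62, 12.58 and 14.28 in cells 1, 3, 4 and 8. No cell was bright for all 3 of these. In the endolysosomal system, LAMP2, a lysosomal membrane protein, had 12.23, 13.14 and 13.92 in cells 1, 4 and 6. PIK3C2A, a lipid kinase of clathrin-coated membranes, had 12.35, 13.34, 14.59 and 16.04 in cells 3, 4, 6 and 7. WASHC1, which drives actin assembly on endosomes, had 13.40, 12.08 and 13.05 in cells 3, 5 and 6. Among nuclear genes, TAF9, a subunit of TFIID, was bright in cells 2 to 6, from 12.62 to 14.63, and TRRAP, a scaffold of histone acetyltransferase complexes, in cells 3, 8 and 9, at 13.59, 13.68 and 14.61. POMP, which assembles the proteasome, had 12.17 to 13.91 in cells 4, 6, 8, 9 and 10. SRP14, a subunit of the signal recognition particle, had 12.27 to 13.93 in cells 1, 2, 3, 4 and 9. The remaining genes lay in the same ranges, with bright medians of 12.22 to 15.16 and low medians of 1.24 to 6.46 over all 88.

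ISL1, NHLH2 and EBF3, the factors chosen to mark these neurons, did not meet the rule. ISL1 was bright in 7 cells, with 13.25 to 16.50 in cells 1, 2, 5, 6, 7, 8 and 9, low in cell 4 (5.97) and cell 10 (3.31), and kept out by cell 3 at 11.13. E9 replicate 3 had 6.11 for ISL1, also low. NHLH2, a bHLH factor of newborn neurons, was bright in cells 5, 6, 7, 9 and 10, with 12.40 to 15.51, and lay between 7.0 and 11.30 in the other 5, above each array's 80th percentile. EBF3 was bright in every cell. At E5, E9 and E14, ISL1 was bright in 3 of 5, 1 of 6 and 1 of 8 cells, NHLH2 in 1, 0 and 0, and EBF3 in 2, 6 and 7.

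Among 1932 genes bright in at least 3 cells, those most like ISL1 over the 10 cells were GRIA2, an AMPA receptor subunit (r = 0.93), VAT1 (0.92), SLC25A12, the neuronal aspartate-glutamate carrier (0.91), KDELR2 (0.85) and RAD21 (0.84). VAT1 had 1.21 in cell 4 and 0.41 in cell 10, the cells low for ISL1, and 12.03 to 15.85 in the other 8. GRIA2 had its lowest values in the same cells, 9.32 and 5.54. Most like NHLH2 were TDRD3 (0.84), GPM6A (0.84), PANK3 (0.82), RHOA (0.81) and CLASP1 (0.78). Most like EBF3 were DYL1 (0.96), FASN (0.95), RACK1 (0.94), RBM3 (0.93) and TMSB4X (0.92). EBF3 and these 5 genes were highest in cell 7, the array of high background, and whether its scaling sets their likeness was not tested. These r values describe 10 cells that share their age and have no p.

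Some genes outside the rule were picked after their values were seen, because they belong to the neurogenic and ganglion cell lists. ATOH7, the factor that ganglion cells need to form, was bright in only cells 5 and 9, at 15.32 and 14.57, and low in the other 8, at -0.07 to 7.62. It was bright in 0 of the 5 E5, 6 E9 and 8 E14 cells. NHLH1 was bright in cells 7 and 9, at 13.97 and 14.53, and next highest in cell 5, at 11.61. NHLH2 also had its highest values in cells 5 and 9. ISL1 was highest in cells 9 and 5, at 16.50 and 16.06. SNCG, gamma-synuclein of ganglion cells, was low in only cells 5 and 7, at 4.08 and 5.89, and had 12.42 to 14.95 in the other 8. CHRNB3, a nicotinic receptor subunit, had its lowest values in cells 5 and 7, at 7.9 and 7.97. Other genes of these lists went otherwise. MYT1, on the neurogenic list, was not bright in cells 5 and 9, at 11.60 and 10.79. It was highest in cells 7 and 10, at 15.68 and 15.24. ELAVL4, on the ganglion cell list, had 9.32 in cell 5 but 14.70 in cell 7. NEFM, on the same list, was bright in both, at 13.49 and 12.58.

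**Figure D4:**
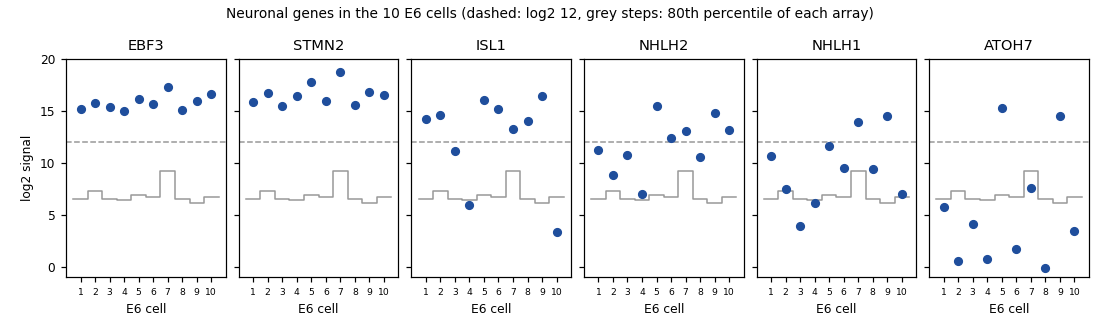
Log2 signal of EBF3, STMN2, ISL1, NHLH2, NHLH1 and ATOH7 in the 10 E6 cells (x axis, replicate number), with log2 12 dashed and the 80th percentile of each array as grey steps. EBF3 and STMN2 are above 12 in every cell, ISL1 is low in cells 4 and 10, NHLH2 is graded, and ATOH7 is bright in cells 5 and 9 only.

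Other probe sets of the same genes were not read for the rule, but each was passed over because its mean in the E6 cells was lower. That choice favours the probe set bright in more cells. Bright readings of a further probe set outside those cells were therefore unlikely beforehand, and the counts only describe. The further probe sets sit on the same array and read the same amplified cDNA, so they bear on the hybridization and not on the copying of RNA. Of the 88 genes, 61 had 126 further probe sets, and 35 of these had at least 1 bright cell. Of their 80 bright readings, 74 (92.5%) were in a cell where the gene was bright, against 42.2% of all readings of the 88 genes. The other 6 belonged to DPH5, EIF5B, NUP58, PPM1E and an unnamed locus. In 12 probe sets with 3 or more bright cells, all bright cells were among those of the gene. A further probe set of CAT, the catalase, had the same 4 bright cells (r = 0.99), 1 of IDI2 the same 6 (r = 0.96) and 1 of SLC7A5 the same 4 (r = 0.92). Those of CAT and IDI2 differ from the chosen probe set only in the ending of the name, so they may read the same stretch. The same holds for a probe set each of OLA1, GAB2, DHRSX, PLA2G15 and ZFP92. Of the 74 readings, these probe sets gave 4 for CAT, 6 for IDI2, 6 for OLA1 and 5 for GAB2. They also gave 4 for DHRSX, 3 for PLA2G15 and 3 for ZFP92. A part of the 92.5% therefore sets a probe set beside one that may read the same stretch. The remaining 91 further probe sets were bright in no cell, among them all 3 each of TENM4, TNFRSF19, VPS41 and DDX47. A VPS41 probe set among these also differs from the chosen one only in the ending. Also bright in no cell were the further probe sets of CDH11, GPALPP1, PLXNC1, NAPB, NKRF, OPRL1, SOD1, RHOB, IGBP1, UBAC2 and ZMYND10. The bright cells of each of these genes rest on 1 probe set.

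The same probe sets were then read at other ages; the level at E6 is set by the choice of genes. In E6 cells 19 to 49 of the 88 genes were bright with a median of 38.5. The E3 cells had 14 to 26, E5 cells 13 to 29, E9 cells 27 to 44 and E14 cells 16 to 33. The highest E9 count, 44, was that of replicate 3, and the other E9 cells had 27 to 35. SOD1 was bright in 6 of 6 E3, 4 of 5 E5, 6 of 6 E9 and 8 of 8 E14 cells. LRPAP1, a chaperone of LDL receptor family proteins that was bright in 7 E6 cells, went from 3 of 6 at E3 and 1 of 5 at E5 to 6 of 6 at E9 and 8 of 8 at E14. NAPB was bright in 0 of 6 E3, 1 of 5 E5, 3 of 6 E9 and 7 of 8 E14 cells, and CA10 in 0, 0, 4 and 5. IDI2 was bright in 3 of 6 E3, 5 of 5 E5, 3 of 6 E9 and 0 of 8 E14 cells. DYRK2, GPALPP1, PDIA3, TNFRSF19 and ZFP92 were bright in none of these 25 cells. At E3, E5, E9 and E14, 60.2%, 60.2%, 68.2% and 65.9% of the 88 genes were bright in some cells and low in others. Over the 1530 genes bright in 3 to 7 E6 cells the shares were 59.1%, 63.5%, 50.9% and 68.9%, and over all genes 21.3%, 20.5%, 17.8% and 22.7%. The E9 shares and the E9 counts of single genes include replicate 3, which had the state of cell 4 in 82 of the 88 genes. It had 6 of the 88 between the thresholds, against 11 to 27 in the other E9 cells. The E9 shares were not computed without it, so the 68.2% is not free of the cells that chose the genes.

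**Figure D5:**
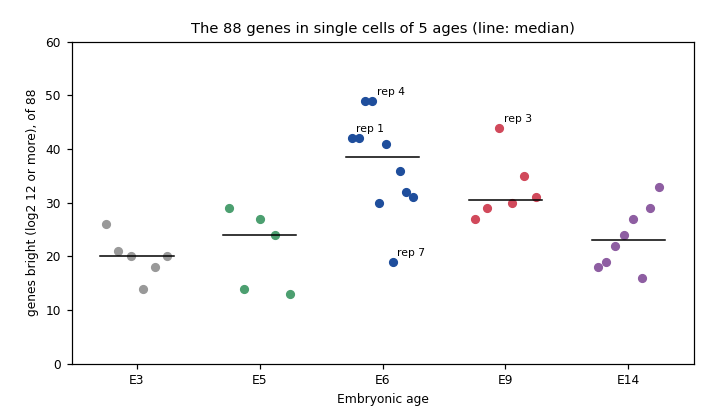
Number of the 88 genes that were bright in each single cell (points) at E3, E5, E6, E9 and E14, with the median of each age as a line. The genes were chosen at E6, where the median is 38.5, and cell 7 lies lowest there at 19, while E9 replicate 3 lies highest at E9 with 44.

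The pairs alike at E6 were then followed in 18 cells of E5, E9 and E14, leaving out E9 replicate 3. The 17 pairs alike in all 10 E6 cells had the same call, bright or not, in a median of 72.2% of these cells, with a range of 50.0% to 94.4%. Over all 3828 pairs the median was 61.1%. The 58 pairs alike in 9 or 10 E6 cells had a median of 61.1% as well. The same call includes cells in which neither gene was bright. GPALPP1, of the set of cells 3, 5 and 8, was bright in 0 of 5 E5, 0 of 6 E9 and 0 of 8 E14 cells, and AADACL3C in 0, 0 and 2. SOD1 and RHOB were each bright in 6 of 6 E9 cells. Shared absence and shared brightness were not separated, so the shares do not show that the genes go together at other ages. The pairs are few and share genes and cells, and no test was made.

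The thresholds decide single cases. The lowest bright values inside the rule were 12.01 for AADACL3C and 12.02 for NATD1 in cell 3, and 12.03 for GPN2 in cell 2. BECN1 was left out by a value just under 12 in cell 2, LRRC47 at 11.99 in cell 10 and NAIF1 at 11.99 in cell 7. On the low side TMEM14A at 6.73 in cell 10, NUP58 at 9.25 in cell 7 and NMB at 6.96 in cell 5 were just inside, and ENDOG at 6.52 in cell 3, TAF3 at 9.27 in cell 7 and DPP9 at 6.57 in cell 8 just outside.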

How the data were processed

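Each of 41 cells had 1 array of 38535 probe sets. The deposited values are log2 signals that the authors computed by MAS5, as the submitters' processing notes name it; its version and settings are not given in the sources used here. They ran from -4.27 to 22.37, with 0 missing, and the 2% trimmed mean of the linear signal was 500.0 to 500.2 per array. Arrays give no counts, so the number of cells limits the precision. The series text speaks of 39 cells.

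Symbols came from the platform annotation (27178 probe sets with 1 symbol, 177 with several, 11180 with none). A gene was read from the probe set that was highest on average in the E6 cells, without 153 control probe sets. Background was the 95th percentile of 687 probe sets designed on other sequence records. No test was made, since the labels name no embryo, and SDs show only the spread between cells.

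The genes and lists were chosen with earlier results of these data known. Genes were named by rule: the markers; members on the function lists, at most 8 or 4 a list by widest gap; up to 6 for each of the 6 most shared sets; the 4 with the widest gap for each number of bright cells; the 5 most like each marker; and those at the thresholds. Others were named after their values were seen. Alternatives changed the thresholds, probe sets, scaling and cells. Python 3.11.15, numpy 2.4.6 and pandas 2.3.3 were used.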

Additional observations from a re-analysis of the deposited data

Results flagged for a closer look

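On the array of cell 7, 4 measures stood apart from the other 9 E6 arrays by their gap to the nearest: the median (7.38), the 80th percentile (9.26), the 95th percentile of probe sets designed on other sequence records, used as background (9.67), and the number of bright genes (895). TMSB4X, thymosin beta 4, was also far above the other cells in cell 7, at 17.79. The highest correlation of cell 4 with any cell of the series, 0.85 with E9 replicate 3, stood apart from those of the other 9 cells. Of 100 sets of 10 values examined, 6 stood apart in this way, and chance alone would mark about 1 in 20 independent sets. All of the 6 except that of cell 4 came from the array of cell 7. They are therefore not independent, and their number cannot be judged by that rate.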

How the results depend on the processing

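The number of genes on in a part of the cells depended on the thresholds and on whether probe sets were averaged or kept apart. It depended far less on the scaling. Against 88 genes, of which 23 shared a set, it was 253 (88 sharing) with bright at log2 11, 18 (3) at log2 13, 54 (13) at the 95th percentile, 50 (6) with low under the 70th percentile, 311 (125) under the 90th, 322 (133) with low reaching up to the highest background, 33 (4) with the mean of all probe sets and 142 (46) with every probe set on its own. Quantile normalization gave 74 (20), a common 75th percentile 76 (17), and it was 87 (23) with the probe set chosen over 41 cells. Of the 88 genes, 66, 65 and 83 were among these, so the scaling changed which genes met the rule more than how many. Leaving out each E6 cell gave 72 to 109 genes and 23 to 40 sharing, with 36, 35, 40, 40 and 39 sharing without cells 1, 2, 3, 4 and 10. Without cells 1, 4 and 7 there were 312 (279), with 2 to 5 bright cells of 7. Chosen after seeing the data, leaving out cells 4 and 7 gave 117 (65), with 3 to 5 bright cells. Without probe sets ending in _s_at or _x_at there were 73 (7), and with 1 cell allowed between the thresholds 359 (176), ISL1 among them. Both of these were also chosen after seeing the data. Of 51 named genes of the 88, 1 met the rule under all 24 alternatives and the median gene under 19. Some alternatives only loosen the rule, so all 88 pass them by construction. They are bright at log2 11, low under the 90th percentile, low up to the highest background and 1 cell between the thresholds. Genes named outside these 51, such as CAT and SUCLA2, were not followed in this way. No paired analysis was possible because no result comes from a test between groups.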
